A study of Mus musculus with 9 samples.

Results

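The genes described here are 9 transcription factors that specify and maintain midbrain dopaminergic neurons: Nr4a2, Pitx3, En1, En2, Lmx1a, Lmx1b, Foxa1, Foxa2 and Otx2. Each was taken by its symbol from a table of 24487 gene rows, and each symbol named exactly 1 row. The measurement was RNA sequencing of the midbrain of C57BL/6 mice, in 5 libraries of whole midbrain and 4 libraries of midbrain dopaminergic neurons. No treatment, genotype, age or sex is given in the labels. How RNA of the dopaminergic neurons was obtained is not in the labels; the deposited table's title carries the term bacTRAP, under which ribosomes tagged in 1 cell type are usually pulled down with the RNA on them. The labels also do not say whether the libraries of a group come from separate animals, so the p-values below measure the spread between these libraries only. Levels are FPKM, fragments per kilobase of transcript per 1000000 mapped fragments, which allow levels of different genes to be set side by side. The FPKM total of a library was 506466 to 521822 for dopaminergic neurons. For whole midbrain the total was 409130 in library 2 and 309275 to 313252 in libraries 1, 3, 4 and 5. Ratios of mean FPKM and the main log2 differences below were not adjusted for these unequal totals, unlike values rescaled to TPM.

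Midbrain dopaminergic neurons arise from the floor plate of the embryonic midbrain. Foxa1, Foxa2, Lmx1a, Lmx1b, Otx2 and the engrailed genes act in its progenitors, whereas Nr4a2 (also called Nurr1) and Pitx3 come on as the neurons form and are needed for the genes of dopamine synthesis and transport. Several of these factors remain on in the adult neurons, where engrailed, Nr4a2 and Foxa proteins are known for their role in upkeep, and Otx2 is known in the adult midbrain as a marker of part of the ventral tegmental area.

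The 8 factors other than Otx2 were higher in dopaminergic neurons than in whole midbrain. Their ratios of mean FPKM ran from 5.15 for En2 to 111 for Pitx3. Otx2 was the exception, with a mean of 3.85 ± 0.367 FPKM (SD, n = 4) in the dopaminergic libraries against 4.93 ± 1.24 FPKM (SD, n = 5) in whole midbrain. Differences were tested with limma on log2(FPKM + 1) over the 13106 genes that averaged 1 FPKM or more, with Benjamini-Hochberg adjustment and a threshold of 0.05. By that test 8 of the 9 factors were called higher and 0 lower, where 38.3% of all genes tested were called higher and 36% lower, 74.2% in all. For 8 factors every dopaminergic library lay above every whole midbrain library, a separation that 32.6% of all genes tested showed. Of all calls 51.5% were higher, a share that was 39.6% after upper-quartile scaling and 23.3% after rescaling to TPM, which moved the median log2 difference of all genes from 0.04 to -0.17 and -0.55. The 8 factors stayed called higher under both. Being called higher was thus common in this comparison, and the size of the difference was less so: 7 of the 9 factors were called higher with a log2 difference of at least 2, against 2.12% of all genes. The median log2 difference was 2.94 over the 9 factors, beside 0.04 over all genes tested. All 9 factors passed the filter on low values, Pitx3, Lmx1a and Lmx1b through the dopaminergic libraries, since their whole midbrain means were below 1 FPKM.

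**Figure D1:**
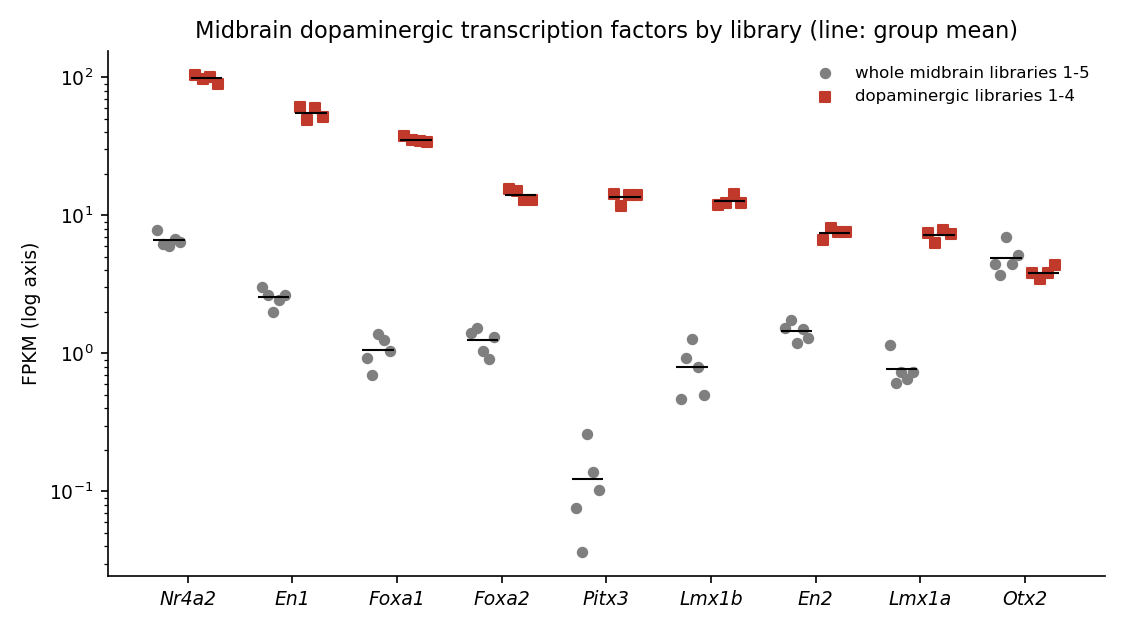
FPKM of the 9 factors on a log axis, 1 point per library (grey circles, whole midbrain libraries 1 to 5; red squares, dopaminergic libraries 1 to 4; lines, group means). The groups are apart for 8 factors and overlap for Otx2, and Pitx3 has the lowest whole midbrain values, between 0.0365 and 0.260 FPKM.

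As a check of the labels, Th, the rate-limiting enzyme of dopamine synthesis, had a mean of 1619 ± 121 FPKM in the dopaminergic libraries against 47.2 ± 2.84 in whole midbrain, and Slc6a3, Slc18a2 and Ddc, the other 3 defining genes, were also called higher. Depth, estimated from the FPKM that a single read gives in single-exon genes and in units of 1000000 reads, was 16.2 to 33.5 in whole midbrain and 47.2 to 62.5 in dopaminergic neurons. Whole midbrain library 2 stood apart: its correlation with its own group over all genes tested was 0.903 to 0.906, where the other whole midbrain libraries had 0.947 to 0.962 with each other. Marker genes of other cell types that whole midbrain holds were nearly all lower in the dopaminergic libraries. That was so for 8 of 8 tested astrocyte markers (summed FPKM 33.0 to 50.0 in dopaminergic neurons against 825 to 887), 8 of 8 oligodendrocyte markers (165 to 280 against 2793 to 3329), 8 of 8 microglial markers (5.08 to 10.8 against 123 to 149) and 8 of 8 endothelial and mural markers (2.05 to 3.66 against 111 to 159). In bulk libraries of this kind, fewer cells of a type, less RNA per cell and the way the RNA was obtained cannot be told apart. If the RNA of the 2 groups was obtained differently, that step is confounded with every difference between the groups given here.

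The promoters of 4 factors are shown because they differ widely in base composition: Nr4a2 (the highest level in dopaminergic neurons), Pitx3 (the highest ratio), Foxa1 (the largest log2 difference) and Otx2 (no call). Each sequence is from RefSeq, build GRCm38.p6 (the assembly also called mm10), on the minus strand of the chromosome and written 5′ to 3′ along the gene, and runs from 210 to 11 bases before the start site. None of these bases lies in a GENCODE exon. Capitals mark a match to 1 of 4 searched motifs.
Nr4a2, chr2:57124014-57124213: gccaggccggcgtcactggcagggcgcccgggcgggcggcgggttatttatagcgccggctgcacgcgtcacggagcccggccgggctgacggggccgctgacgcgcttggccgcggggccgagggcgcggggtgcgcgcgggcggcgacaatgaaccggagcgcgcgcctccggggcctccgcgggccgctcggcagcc
Pitx3, chr19:46148336-46148535: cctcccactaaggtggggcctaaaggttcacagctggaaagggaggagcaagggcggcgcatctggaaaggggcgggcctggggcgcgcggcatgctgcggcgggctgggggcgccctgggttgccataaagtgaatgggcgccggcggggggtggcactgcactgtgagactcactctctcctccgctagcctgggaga
Foxa1, chr12:57546122-57546321: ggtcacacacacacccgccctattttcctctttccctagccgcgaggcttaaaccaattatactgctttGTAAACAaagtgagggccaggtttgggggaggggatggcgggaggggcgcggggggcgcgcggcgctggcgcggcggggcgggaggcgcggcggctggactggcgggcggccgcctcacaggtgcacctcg
Otx2, chr14:48667655-48667854: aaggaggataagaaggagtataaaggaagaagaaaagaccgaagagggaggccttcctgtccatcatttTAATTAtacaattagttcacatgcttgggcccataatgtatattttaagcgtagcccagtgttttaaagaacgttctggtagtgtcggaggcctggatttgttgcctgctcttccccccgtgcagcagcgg
The 250 bases before the start site held 44 CpG dinucleotides at 80% G and C for Nr4a2, 16 at 68.8% for Pitx3, 21 at 62% for Foxa1 and 6 at 42% for Otx2. Over all 32851 windows of the same length the medians were 6 CpG and 52.4%. Of the factors not shown, Lmx1a had 9 CpG at 59.2%, En1 19 at 56% and Lmx1b 19 at 65.2%. Of these 250 bases, 69 lie in GENCODE exons for En1 and 156 for Lmx1b. The Lmx1b start site is 587 bases from that of the deposited span and was not found in a GENCODE transcript of the gene. Foxa2 had 6 at 50.8% before its first start site, and 20 and 13 before start sites within the gene. Windows were found for 8 of the 9 factors, and En2 had none.

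The motifs searched on both strands of the 300-base windows were AAAGGTCA (the NR4A response element), TGTTTAC (a forkhead core), TAATTA (a homeodomain core) and GGATTA (a core bound by bicoid-type homeodomains, the kind in Otx2 and Pitx3). The Foxa1 window held 1 forkhead core, read as GTAAACA on the gene's strand, 141 bases before the start site. The forkhead core was in 3.65% of all windows. The first Otx2 window held 1 homeodomain core, also 141 bases before its start site, and a window at a start site within the gene held 3 more and 1 bicoid-type core. All 250 bases before this start site within the gene lie in GENCODE exons. The homeodomain core was in 5.29% of all windows and the bicoid-type core in 7.06%, and the 8 factors with windows had 13 windows in all. AAAGGTCA, found in 1.51% of all windows, was in none of the factors' windows. A match is a run of letters and was not tested as a binding site.

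Nr4a2 and Pitx3 are the factors of the postmitotic neuron. Nr4a2 (chr2:57107226-57124003, minus strand, mm10) is an orphan nuclear receptor that binds DNA as a monomer or with RXR and is required for Th expression in these cells. It was at 104.4, 96.9, 101.2 and 89.6 FPKM in dopaminergic libraries 1 to 4, and at 7.79, 6.19, 6.01, 6.73 and 6.38 FPKM in whole midbrain libraries 1 to 5. The groups did not overlap, and Nr4a2 had the highest level of the 9 factors in each dopaminergic library. Its mean was 98.0 ± 6.38 FPKM (SD, n = 4) against 6.62 ± 0.706 (SD, n = 5), a ratio of 14.8 and a log2 difference of 3.70 (SE 0.0849, limma adjusted p = 8.579e-10).

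Pitx3 (chr19:46135686-46148325, minus strand) is a bicoid-type homeodomain factor whose loss in mice removes most neurons of the substantia nigra. It was at 14.2, 11.6, 14.1 and 14.1 FPKM in the dopaminergic libraries, with library 2 lowest. In whole midbrain it was at 0.0754, 0.0365, 0.260, 0.138 and 0.102 FPKM, so every library there lay below 1 FPKM. These low values were close to whole reads, about 3, 1, 5, 4 and 4 reads at the estimated depths and within 0.0308 of a whole number, against about 814, 649, 1043 and 1013 reads in the dopaminergic libraries. In total 3519 reads in the dopaminergic libraries stood against 17 in whole midbrain, and relative to depth the ratio was 123 (exact 95% interval 76.9 to 212, for counting error only). The log2 difference of Pitx3 was 3.69 (SE 0.0964, limma adjusted p = 1.194e-09), which the pseudocount of 1 FPKM holds down: it was 6.01 with a pseudocount of 0.1 and 1.85 with a pseudocount of 5.

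Pitx3 lies against another gene. Elovl3, a fatty acid elongase on the opposite strand (chr19:46131899-46135694), shares 9 bases with the span of Pitx3 in the table and 10 exonic bases in GENCODE. The RefSeq span of Pitx3 runs 405 bases beyond the table's end of the gene and overlaps that of Elovl3 by 414 bases. Elovl3 was at 6.17, 3.77, 4.004 and 3.71 FPKM in the dopaminergic libraries, against 0.0878, 0.408, 0.363, 0.0722 and 0 in whole midbrain, a log2 difference of 2.18 (limma adjusted p = 8.755e-07). How strand was handled is not given in the sources used here, so reads of the ends of these 2 genes cannot be told apart. Elovl3 passed the filter through the dopaminergic libraries, since its whole midbrain mean was 0.186 FPKM, and it was singled out after its values were seen.

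The engrailed genes En1 and En2 encode homeodomain factors that set up the midbrain and keep dopaminergic neurons alive in a dose-dependent way. En1 (chr1:120602487-120607991, plus strand) was at 60.9, 49.3, 59.9 and 51.2 FPKM in the dopaminergic libraries, against 3.04, 2.65, 1.99, 2.41 and 2.63 in whole midbrain. Its mean was 55.3 ± 5.91 FPKM (SD, n = 4) against 2.54 ± 0.383 (SD, n = 5), a ratio of 21.8 and a log2 difference of 3.99 (SE 0.104, limma adjusted p = 1.194e-09). En1 was second to Nr4a2 in level in the dopaminergic libraries, and the lowest of these was far above the highest whole midbrain library.

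En2 (chr5:28165696-28172166, plus strand) was at 6.64, 8.04, 7.62 and 7.57 FPKM in the dopaminergic libraries, against 1.52, 1.75, 1.18, 1.495 and 1.30 in whole midbrain. Its mean was 7.47 ± 0.591 FPKM (SD, n = 4) against 1.45 ± 0.220 (SD, n = 5). The ratio of 5.15 and the log2 difference of 1.79 (SE 0.0942, limma adjusted p = 8.142e-08) were the smallest of the 8 factors called higher. Within the dopaminergic group En1 and En2 did not move together: library 1 had the highest En1 and the lowest En2.

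Lmx1a and Lmx1b are LIM homeodomain factors that induce the dopaminergic fate in floor plate progenitors. Lmx1a (chr1:167689558-167848733, plus strand) was at 7.45, 6.25, 7.83 and 7.28 FPKM in the dopaminergic libraries, against 1.14, 0.612, 0.735, 0.654 and 0.728 in whole midbrain, where library 1 was highest. Its mean was 7.20 ± 0.674 FPKM (SD, n = 4) against 0.774 ± 0.212 (SD, n = 5), a ratio of 9.30 and a log2 difference of 2.21 (SE 0.108, limma adjusted p = 5.134e-08). The whole midbrain values rested on an estimated 37.5 to 120 reads per library.

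Lmx1b (chr2:33564536-33640511, minus strand) is also required in serotonergic neurons, which lie close by. It was at 11.8, 12.3, 14.1 and 12.2 FPKM in the dopaminergic libraries, against 0.466, 0.930, 1.26, 0.798 and 0.4999 in whole midbrain. Its mean was 12.6 ± 1.05 FPKM (SD, n = 4) against 0.791 ± 0.329 (SD, n = 5), a ratio of 15.9 and a log2 difference of 2.94 (SE 0.135, limma adjusted p = 3.473e-08). Serotonergic markers were not higher with it: 4 of 5 were tested and all 4 were called lower, and the summed level of the 5 was 8.46 to 15.6 FPKM in the dopaminergic libraries and 58.8 to 120 in whole midbrain.

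The forkhead factors Foxa1 and Foxa2 open chromatin in many endoderm and floor plate derivatives and act upstream of Nr4a2 and Th. Foxa1 (chr12:57540632-57546121, minus strand) was at 37.8, 35.1, 34.3 and 34.1 FPKM in the dopaminergic libraries, against 0.925, 0.700, 1.38, 1.24 and 1.04 in whole midbrain. Its mean was 35.3 ± 1.69 FPKM (SD, n = 4) against 1.06 ± 0.266 (SD, n = 5), a ratio of 33.4. The log2 difference of 4.15 (SE 0.103, limma adjusted p = 1.012e-09) was the largest of the 9 factors on this scale and 7th of all 13106 genes. Foxa1 also varied least among the dopaminergic libraries, with a coefficient of variation of 4.78%.

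Foxa2 (chr2:148042877-148046969, minus strand) was at 15.5, 15.0, 13.0 and 13.0 FPKM in the dopaminergic libraries, against 1.40, 1.53, 1.04, 0.907 and 1.32 in whole midbrain. Its mean was 14.1 ± 1.32 FPKM (SD, n = 4) against 1.24 ± 0.260 (SD, n = 5), a ratio of 11.4 and a log2 difference of 2.76 (SE 0.107, limma adjusted p = 1.232e-08). The groups were far apart, as for Foxa1.

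Otx2 (chr14:48657677-48667644, minus strand) is a bicoid-type homeodomain factor that gives the midbrain its anterior identity. It was at 3.80, 3.46, 3.79 and 4.35 FPKM in the dopaminergic libraries, against 4.47, 3.67, 6.94, 4.41 and 5.15 in whole midbrain. The groups overlapped, with whole midbrain library 3 highest and dopaminergic library 2 lowest. The log2 difference was -0.27 (SE 0.143, limma adjusted p = 0.111), so Otx2 was not called at the threshold. This call depended on the processing: Otx2 was called lower in 4 of 20 alternatives, with a log2 difference of -0.35 (adjusted p = 0.0222) without whole midbrain library 2 and -0.89 (adjusted p = 0.00243) after rescaling to TPM, and the adjusted p ran from 0.00243 to 0.977 over all 20. In GENCODE, Otx2 shares 154 exonic bases with the antisense gene Otx2os1 and 168 with Gm49154 on its own strand. Otx2os1 averaged 0.244 FPKM in the dopaminergic libraries and 0.125 in the others. Its deposited span lies 1643 bases from that of Otx2, so this level may not cover the shared bases.

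Markers of some other sources of Otx2 in the brain were looked at beside it. Choroid plexus and ependymal markers summed to 12.02, 33.7, 25.2, 162 and 13.1 FPKM in whole midbrain libraries 1 to 5 and to 4.44 to 5.50 FPKM in the dopaminergic libraries. Of these 10 markers 4 were tested and 3 called lower, of which Foxj1 was called in 12 and Tmem212 in 10 of 20 alternatives. Ttr alone made up 146 FPKM of the sum in whole midbrain library 4, and without Ttr the sums were 11.6, 27.6, 23.0, 16.4 and 12.9 FPKM. Library 3, with the highest Otx2, had the second highest of these sums, and library 2, with the lowest Otx2 of the group, had the highest. GABAergic markers, of neurons common in the midbrain, were called lower for 7 of 7 genes (summed FPKM 75.9 to 86.4 against 366 to 386). The part of these cells in the Otx2 level was not tested.

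**Figure D2:**
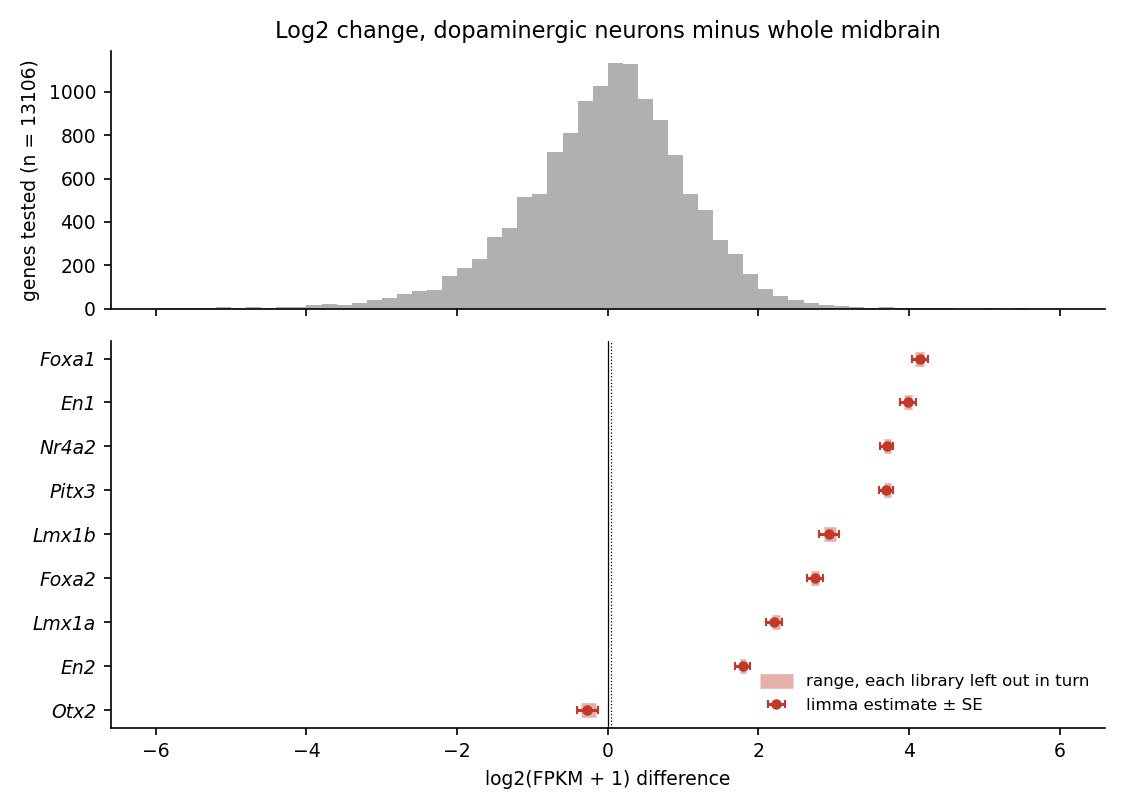
Log2(FPKM + 1) difference, dopaminergic neurons minus whole midbrain: above, a histogram of all 13106 genes tested; below, the 9 factors with the limma estimate ± SE and, as a band, the range when each library is left out in turn (dotted line, median of all genes). Foxa1, En1, Nr4a2 and Pitx3 lie between 3.69 and 4.15, in the thin upper end of the histogram, and Otx2 lies at -0.27.

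The order of the levels was not the same in the 2 groups. In dopaminergic neurons the order was Nr4a2, En1, Foxa1, Foxa2, Pitx3, Lmx1b, En2, Lmx1a and Otx2. Nr4a2, En1 and Foxa1 each lay above the next in 4 of 4 libraries, by 1.77, 1.57 and 2.50 times in mean FPKM. Foxa2, Pitx3 and Lmx1b could not be ordered, since neighbours in that order overlapped and each was the higher in only 2 of 4 libraries, and the same held for En2 and Lmx1a. Otx2 was lowest, with Lmx1a 1.87 times above it in 4 of 4 libraries. In whole midbrain the order was Nr4a2, Otx2, En1, En2, Foxa2, Foxa1, Lmx1b, Lmx1a and Pitx3. Otx2 overlapped with Nr4a2 there, and En2, Foxa2, Foxa1, Lmx1b and Lmx1a overlapped each with the next. Pitx3 stood apart at the low end, 6.34 times below Lmx1a and lower than it in 5 of 5 libraries.

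Within each related pair, the share of the first gene in the summed FPKM of the pair was compared, a ratio that does not depend on the scaling of a library. En1 made up 90.2%, 86.0%, 88.7% and 87.1% of En1 plus En2 in the dopaminergic libraries and 66.6%, 60.2%, 62.7%, 61.8% and 66.9% in whole midbrain. The means of 88.0% ± 1.83 (SD, n = 4) and 63.6% ± 2.99 (SD, n = 5) differed by 24.4 percentage points (two-sided exact permutation test, p = 0.0159, adjusted p = 0.0238 over 3 pairs). Engrailed transcripts in dopaminergic neurons were thus shifted further towards En1, and the groups did not overlap.

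Foxa1 made up 70.9%, 70.1%, 72.5% and 72.5% of Foxa1 plus Foxa2 in the dopaminergic libraries and 39.7%, 31.3%, 57.0%, 57.8% and 44.1% in whole midbrain. Foxa1 was therefore the more abundant of the pair in all 4 dopaminergic libraries and in 2 of the 5 whole midbrain libraries. The difference of the means was 25.5 percentage points (two-sided exact permutation test, p = 0.0159, adjusted p = 0.0238 over 3 pairs). The p of 0.0159 is the smallest that 4 libraries against 5 can give.

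Lmx1a made up 38.7%, 33.7%, 35.6% and 37.4% of Lmx1a plus Lmx1b in the dopaminergic libraries, so Lmx1b was the more abundant in each. In whole midbrain its share was 71.0%, 39.7%, 36.8%, 45.1% and 59.3%, which spread widely and overlapped with the dopaminergic range. The difference of the means was -14.0 percentage points (two-sided exact permutation test, p = 0.0476, adjusted p = 0.0476), and the call was lost without whole midbrain library 1, where the difference was -8.84 points (adjusted p = 0.0857), and without library 2, 4 or 5 (-16.7, -15.3 and -11.8 points). For all 3 pairs, leaving out any 1 dopaminergic library took the adjusted p above 0.05, with 3 libraries against 5. For En1 and Foxa1 the groups still did not overlap then. Their p was the smallest that 3 libraries against 5 can give, so the lost call says nothing of stability. The members of a pair share exact runs of at most 17 bases (En1 and En2), 21 bases (Lmx1a and Lmx1b) and 38 bases (Foxa1 and Foxa2). These runs are in the longest coding transcript of each gene and are well under the read length of 100 bases. Shared runs with mismatches and the assignment of reads within a pair were not tested.

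**Figure D3:**
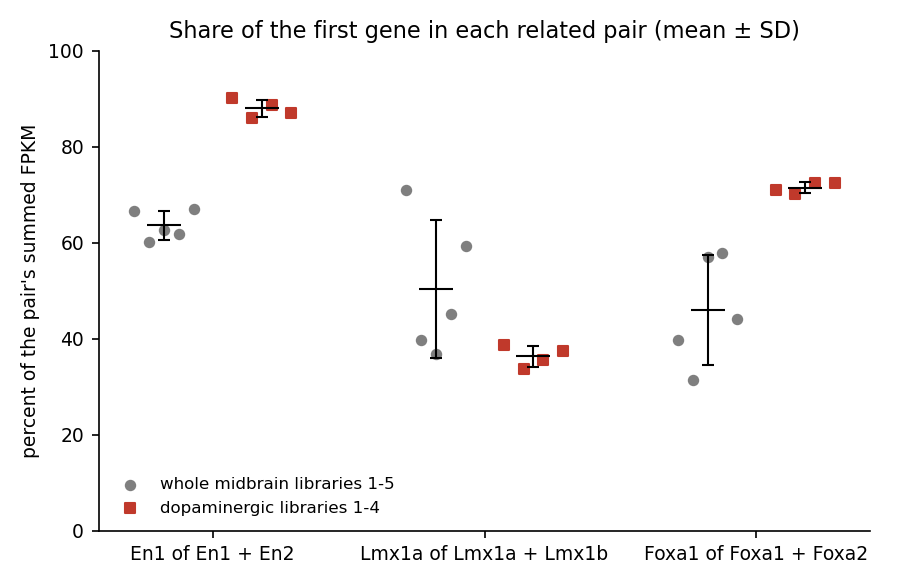
Share of the first gene in the summed FPKM of each related pair, in percent, 1 point per library with the group mean ± SD (grey circles, whole midbrain; red squares, dopaminergic neurons). The dopaminergic libraries lie above whole midbrain for En1 and for Foxa1, and overlap with it for Lmx1a, where whole midbrain spreads from 36.8% to 71.0%.

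Among the 4 dopaminergic libraries the coefficient of variation of the 9 factors ran from 4.78% (Foxa1) to 10.7% (En1). No library was high or low for all factors. As a percent of each gene's mean over the 4 libraries, library 1 held 110% of En1 and 109.7% of Foxa2 but 88.9% of En2. Library 2 held 86.0% of Pitx3 and 86.8% of Lmx1a but 108% of En2. Library 4 held 91.4% of Nr4a2, 92.5% of En1 and 91.9% of Foxa2 but 113% of Otx2. Th had 106%, 95.2%, 106% and 92.1% in libraries 1 to 4, and oligodendrocyte markers, the most abundant of the other cell types, summed to 165, 236, 184 and 280 FPKM. For 4 of the 9 factors (Nr4a2, Pitx3, En1 and Lmx1a) libraries 1 and 3 both lay above 2 and 4. For the other 5 they did not. Pitx3 did so narrowly, at 104.5% in library 3 against 104.4% in library 4. The share of all genes with this order was not computed. Th had the same order, opposite to that of the oligodendrocyte sum, but Slc6a3 did not (98.2%, 95.3%, 106% and 101% in libraries 1 to 4). The part of the oligodendrocyte RNA in these differences was not tested. In whole midbrain the coefficient of variation was larger, from 10.7% for Nr4a2 to 69.8% for Pitx3.

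**Figure D4:**
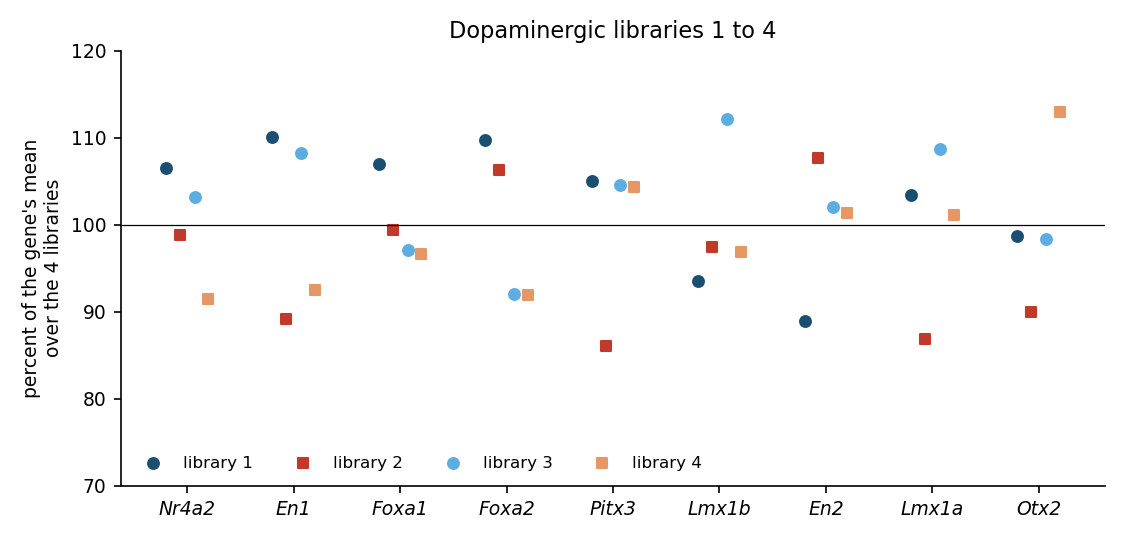
Each factor in the 4 dopaminergic libraries as a percent of its mean over them, 1 point per library. All points lie between 86.0% and 113%, with library 2 lowest for Pitx3, En1, Lmx1a and Otx2 and highest for En2.

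The relatives and partners of the factors are described by counts, beside the 38.3% of all genes tested that were called higher and the 36% called lower. Of the other NR4A receptors and the RXR partners of Nr4a2, 4 of 5 genes were tested, 0 were called higher and 2 lower (1 higher without whole midbrain library 2, and 1 lower without whole midbrain library 5 or dopaminergic library 1 or 2). Nr4a1, an immediate early gene of the same receptor family, was lower, at 1.25 ± 0.453 FPKM (SD, n = 4) against 3.82 ± 1.25 (SD, n = 5), a log2 difference of -1.08 (limma adjusted p = 4.762e-04). Nr4a3 was below the filter at 0.216 and 0.534 FPKM, so Nr4a2 was the most abundant of the 3 receptors in both groups. Rxra, at 4.50 FPKM against 5.71, was the other gene called lower, by a log2 difference of -0.29, a call that held in 14 of 21 alternatives. Of the 9 coregulators of Nr4a2 that were tested, 2 were called higher, among them Sin3b (log2 difference 0.88), and 2 lower (Sfpq, -0.67, and Sin3a, -0.46). Without whole midbrain library 2 the number called higher was 4, and after rescaling to TPM 0 were called higher and 6 lower.

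Among the bicoid-type relatives of Pitx3 and Otx2, 1 of 6 passed the filter. Otx1, the closest relative of Otx2, was at 6.20, 6.52, 4.90 and 5.01 FPKM in the dopaminergic libraries, against 2.24, 2.15, 2.73, 2.21 and 2.43 in whole midbrain, with no overlap. Its log2 difference was 0.98 (limma adjusted p = 9.616e-06), and it was called higher in all 20 alternatives in which it was tested. Otx1 thus lay above Otx2 in each dopaminergic library and below it in each whole midbrain library.

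The LIM homeodomain relatives of Lmx1a and Lmx1b were low, with 3 of 10 tested, 1 called higher (0 without dopaminergic library 2) and 1 lower (2 without whole midbrain library 2). Of 9 cofactors that bind LIM domains or the adaptor Ldb1, 6 were called higher and 0 lower (4 and 3 after rescaling to TPM), with a median log2 difference of 0.82, beside 38.3% higher, 36% lower and a median of 0.04 over all genes tested. Without whole midbrain library 2 or dopaminergic library 4, 1 cofactor was called lower. Lmo3 was at 135 ± 11.6 FPKM against 19.9 ± 3.36 (log2 difference 2.72, limma adjusted p = 2.784e-08) and Lmo4 at 111 FPKM against 16.9 (2.69, adjusted p = 6.183e-07). Both are LIM-only proteins that compete with LIM homeodomain factors for Ldb1. Ldb1 itself, the adaptor through which LIM homeodomain proteins assemble, was at 26.8 ± 2.43 FPKM against 12.5 ± 0.689 (log2 difference 1.04, limma adjusted p = 1.045e-06).

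Of 32 other forkhead genes, 12 passed the filter, 6 were called higher and 5 lower, where 38.3% of all genes tested were higher and 36% lower. Their median log2 difference was 0.09, beside 0.04 over all genes. Foxp4 was highest among them at 33.0 ± 4.13 FPKM against 4.98 ± 1.05 (log2 difference 2.52, limma adjusted p = 1.738e-07), a level near that of Foxa1 in dopaminergic neurons. The FoxO factors, which respond to insulin signalling, differed in direction: Foxo3 was higher (log2 difference 1.35, adjusted p = 4.116e-05) and Foxo1 lower (-1.44, adjusted p = 5.324e-07). Foxa3, the third member of the Foxa group, was listed at 0 in all 4 dopaminergic libraries.

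Engrailed proteins bind DNA with the TALE homeodomain factors of the Pbx group and recruit Groucho corepressors. Of 13 TALE and Groucho genes tested, 7 were called higher and 4 lower, beside 38.3% and 36% of all genes, and their median log2 difference was 0.32. Pbx3 was at 136 ± 5.91 FPKM (SD, n = 4) against 20.5 ± 2.31 (SD, n = 5), a mean above that of every one of the 9 factors in dopaminergic neurons (log2 difference 2.68, limma adjusted p = 5.189e-09). Meis2 and Meis1, TALE factors that partner with Pbx proteins, were lower, by log2 differences of -2.11 and -1.31 (adjusted p = 3.613e-05 and 3.632e-06). Meis3 was higher (1.39, adjusted p = 4.138e-07).

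Genes reported as targets of the 9 factors were mostly higher: 13 of 16 were called higher (11 to 13 over the alternatives) and 3 lower, with a median log2 difference of 2.58, beside 38.3% higher, 36% lower and a median of 0.04 over all genes. The list holds the 4 genes that define these neurons, so its direction is not independent evidence. Th had a ratio of 34.3 and a log2 difference of 5.07 (limma adjusted p = 1.223e-10), and Drd2, the dopamine autoreceptor, was at 233 ± 25.5 FPKM against 11.5 ± 1.93 (4.23, adjusted p = 3.002e-09). Against the rest, Cdkn1c, a cell cycle inhibitor that cooperates with Nr4a2 in development, was lower at 0.345 FPKM against 2.51 (-1.30, adjusted p = 0.00219). Map1b, a microtubule-associated protein reported to be under transcriptional control by engrailed, was lower at 154 FPKM against 320 (-1.05, adjusted p = 2.590e-05). Ndufs1, a complex I subunit whose translation engrailed is reported to promote, was at 29.5 FPKM against 54.4 (-0.86, adjusted p = 6.925e-06). Ndufs3, the other complex I subunit of the list, had a mean of 151 FPKM against 98.4 and was called higher (0.80, adjusted p = 0.0452), a call that held in 7 of 21 alternatives, with whole midbrain library 2 at 219 FPKM and the other 4 at 66.1 to 73.2.

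Of 20 induction signals and progenitor factors, 11 were tested, 3 called higher and 4 lower (2 lower without dopaminergic library 1), beside 38.3% and 36% of all genes tested. Ferd3l, a basic helix-loop-helix factor of the floor plate also called Nato3, was at 4.30, 3.83, 2.74 and 3.08 FPKM in the dopaminergic libraries, against 0.131, 0, 0.180, 0.1195 and 0.132 in whole midbrain (log2 difference 2.001, limma adjusted p = 2.392e-07). Ferd3l passed the filter through the dopaminergic libraries, since its whole midbrain mean was 0.113 FPKM. Its log2 difference ran from 0.73 to 4.14 over the alternatives. The other genes called higher in this list had log2 differences below 1. Sox2, a stem cell and glial factor, and Smo, the signal transducer of the hedgehog pathway, were lower by log2 differences of -1.93 and -1.75 (adjusted p = 3.286e-06 and 2.168e-07). Shh, the floor plate ligand itself, was at 2.12 ± 0.564 FPKM against 1.93 ± 0.523 and was not called (adjusted p = 0.622).

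**Figure D5:**
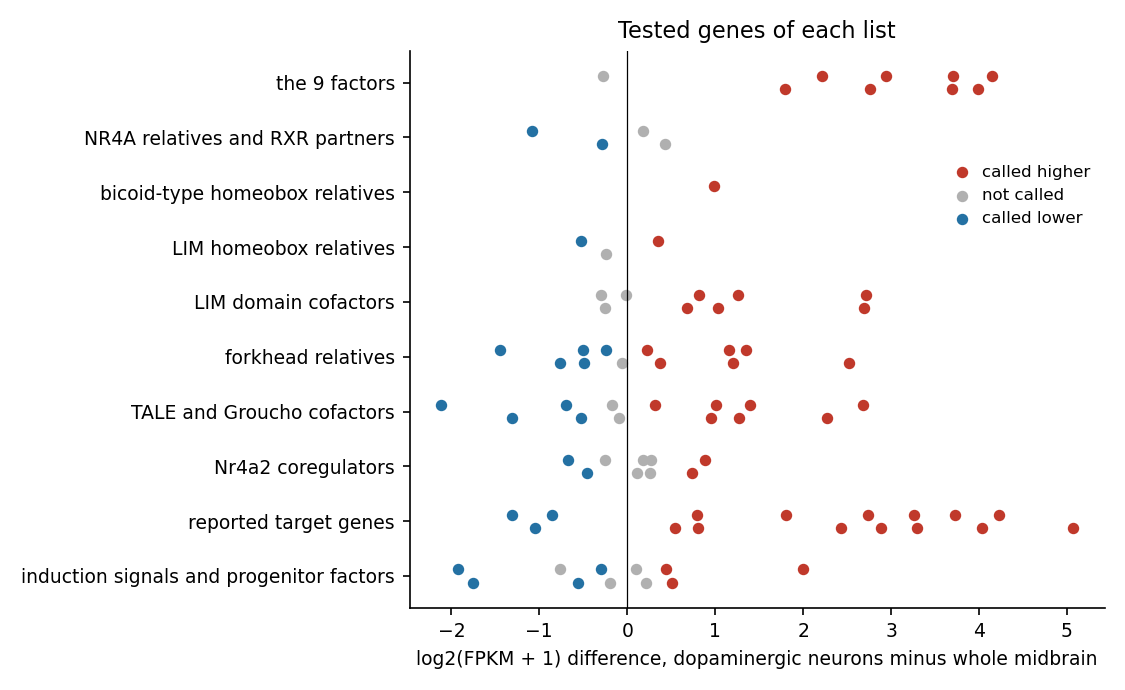
Log2(FPKM + 1) difference of every tested gene in each list, 1 point per gene (red, called higher; blue, called lower; grey, not called; limma, adjusted p under 0.05). The LIM domain cofactors have 6 genes called higher and 0 lower (4 and 3 after rescaling to TPM), the reported targets 13 and 3, and the other lists hold both directions or few tested genes.

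Genes whose log2(FPKM + 1) was most like that of each factor over the 9 libraries were taken from 8906 genes that averaged 5 FPKM or more in either group. The 9 factors themselves, symbols with more than 1 row, predicted genes, clones and small RNAs were left out beforehand. Because 2 groups make up the 9 libraries, between 1560 and 1696 genes had a Pearson r above 0.95 with each of the 8 factors called higher, so these values largely follow the difference between the groups and are given as a description. Th (0.9995) and Ddc (0.9993) were nearest to Nr4a2, Rit2 and Th to En1, and Pdxp and Fam210b to Pitx3. Foxa1 was nearest to Fam210b and Cadps2, Foxa2 to Snx10 and Pbx3, En2 to Dnajc15 and Ppp2r2d, Lmx1a to Txn2 and Hist2h4, and Lmx1b to Nrgn and Brinp1. For Otx2 no gene passed 0.95, and Traf7 (0.884) and Plxnc1 (0.870) were nearest.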

How the data were processed

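RNA of 9 libraries (5 of whole midbrain, 4 of midbrain dopaminergic neurons) was amplified to cDNA and sequenced from 1 end on an Illumina instrument, per the labels' protocols. The authors deposited FPKM values in 1 table, made with TopHat2 2.0.8 and Cufflinks 2.1.1 on mm10, per the submitters' processing notes. No source used here gives the gene annotation, the options or the strand handling. Deposited dopaminergic values carry at most 6 significant digits and whole midbrain values up to 10, so the handling of the files and the group cannot be told apart. Table starts, which count from 0, were raised by 1.

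The groups came from the sample titles. The test was limma 3.58.1 (R 4.3.3) on log2(FPKM + 1), two-sided, with a mean-variance trend, for the 13106 genes that averaged 1 FPKM or more, adjusted by Benjamini-Hochberg over all of them at 0.05. FPKM are not counts, so no count model was used. The procedure was tested on simulated data in which few genes differed between groups and library totals were not made unequal. That test thus says nothing of calls under the unequal totals and the 74.2% of genes called here. Shares within pairs were compared by an exact permutation test (SciPy 1.17.1). Depth was taken from the value of 1 read in receptor genes of a single exon, with a 200-base fragment assumed and a tolerance of 1%. Intervals cover counting error only. The alternatives were 21 for the limma fit: pseudocounts, filters, scalings, trend, library weights, a replicate block and each library left out, with 1 chosen after seeing the data (without dopaminergic libraries 2 and 4). Promoter sequences are from RefSeq and exons from GENCODE. Protein sequences were not analysed here.

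The 9 factors and all lists were chosen with earlier results of these data known. Named in the text are the 9 factors, 4 defining dopaminergic genes, in each list the 2 called genes with the largest log2 difference and up to 2 called genes that go against most of it, family relatives with a mean of at least 1 FPKM, and the 2 genes most like each factor. Other genes named, such as Elovl3, Ndufs1, Ndufs3 and the cofactors beyond these, were chosen after their values were seen. A few genes that the rule names are not reported here.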

Additional observations from a re-analysis of the deposited data

Results flagged for a closer look

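Of 24 groups of 4 or 5 values checked, 2 had a sample far from the others by Dixon's criterion, which chance alone marks in about 1 of 20 groups. Pitx3 in dopaminergic library 2 was lowest at 11.6 FPKM, where the other 3 libraries had 14.1 to 14.2. Lmx1a in whole midbrain library 1 was highest at 1.14 FPKM, where the other 4 had 0.612 to 0.735. Leaving out either library kept both genes called higher in dopaminergic neurons by limma.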

How the results depend on the processing

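The 8 factors called higher stayed so in every alternative in which they were tested (21, or 20 for En2 and Lmx1a), also without whole midbrain library 2 and, chosen after seeing the data, without dopaminergic libraries 2 and 4, the 2 with the most oligodendrocyte marker RNA. A minimum mean of 5 FPKM left En2, Lmx1a and Otx2 untested. Their log2 differences ran from 1.85 to 6.01 for Pitx3, from 0.95 to 2.30 for En2, from 1.08 to 3.09 for Lmx1a and from 3.15 to 3.87 for Nr4a2, with the extremes for Pitx3, En2 and Lmx1a set by the pseudocounts of 5 and 0.1. The number of factors called lower went from 0 to 1, which was Otx2, under upper-quartile scaling (log2 difference -0.48), rescaling to TPM (-0.89), library weights (-0.34) and without whole midbrain library 2 (-0.35). Under quantile normalization Otx2 was at -0.01. The cause was not tested. Over all genes, 5014 were called higher and 4717 lower, against 2248 and 7393 after rescaling to TPM and 4177 and 2493 with a minimum mean of 5 FPKM, where fewer genes were tested. Of 378 list counts recomputed, 326 stayed within 1.5 times.

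Without 1 dopaminergic library the difference in share was 23.6 to 25.0 points for En1 and 25.2 to 26.0 for Foxa1 (adjusted p = 0.0536 by the exact test), and -13.1 to -14.8 points for Lmx1a (0.0714 to 0.107). Without 1 whole midbrain library it was 23.5 to 25.2 points for En1, 21.8 to 28.4 for Foxa1 and -17.4 to -8.84 for Lmx1a. With the replicate block (4 pairs, smallest exact p 0.125) the shares differed by 25.2, -11.8 and 25.0 points for En1, Lmx1a and Foxa1, and without dopaminergic libraries 2 and 4 by 25.8, -13.2 and 25.7 points (adjusted p = 0.143, 0.190 and 0.143). The block and the comparison of 2 libraries against 5 cannot reach the threshold, so they say nothing of stability. Without 1 dopaminergic library, En1 and Foxa1 were at the smallest p that the exact test can then give. Their adjusted p of 0.0536 therefore says nothing of stability either.

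The values showed no pairing by replicate number: the correlations of deviations of same-numbered libraries were -0.039, -0.050, 0.0067 and 0.019, and 1 of 4 correlated best with its own number. This cannot exclude that same-numbered libraries share a source. With the replicate block 4593 genes were called higher and 4294 lower, 8 factors among the higher. Depth limits Pitx3 in whole midbrain, which rests on 17 reads in all.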

Other observations

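Rows next to the 9 factors on the chromosome were looked at after the values of the factors were seen. C130021I20Rik (chr2:33641193-33645663), an uncharacterised gene whose span begins 681 bases from that of Lmx1b, was at 30.0, 27.7, 33.0 and 29.5 FPKM in the dopaminergic libraries, against 1.75, 1.11, 1.64, 1.94 and 1.89 in whole midbrain. The groups did not overlap, and its log2 difference of 3.55 (limma adjusted p = 3.002e-09) stood beside 2.94 for Lmx1b. Its mean FPKM in dopaminergic neurons, 30.1, was above that of Lmx1b, 12.6. In RefSeq the 2 spans share 16 bases.

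BB557941 (chr2:57127477-57181754), whose span lies 3473 bases from that of Nr4a2, was at 1.73, 1.90, 1.67 and 1.46 FPKM in the dopaminergic libraries, against 0.0331, 0.0480, 0.137, 0 and 0.0668 in whole midbrain, below the filter and so not tested. Of the 18 rows nearest the factors, 10 were tested, 5 called higher and 3 lower, beside 38.3% and 36% of all genes tested. Gbf1 beside Pitx3 was at 39.1 FPKM against 18.2 (log2 difference 1.08, limma adjusted p = 6.623e-05), Insig1 beside En2 at 82.5 against 42.8 (0.93, adjusted p = 1.344e-06) and Mvb12b beside Lmx1b at 38.4 against 18.5 (1.01, adjusted p = 2.270e-07). The 3 called lower were C1ql2 beside En1, at 0.999 FPKM against 6.21 (-1.76, limma adjusted p = 9.186e-05), Sstr4 beside Foxa2, at 0.481 against 1.48 (-0.74, adjusted p = 0.00175), and Tmem260 beside Otx2, at 3.58 against 4.50 (-0.27, adjusted p = 0.0272).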
